A study of Caenorhabditis elegans with 2 samples.

Results

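The 10 genes described here encode proteins that bind or modify RNA in the germ line or early embryo of Caenorhabditis elegans. The genes are mex-1, pos-1, oma-1, oma-2, mex-5, mex-6, mex-3, gld-1, gld-2 and spn-4. They are 10 of 19973 protein-coding genes on the nuclear chromosomes. They were chosen by name, with results of these data known, and their peaks were selected on position: a summit, the base of highest signal in a peak, within 1000 bp of an annotated transcript start. Of 103094 ranked peaks, 45 met that rule. The choice of the genes used the measured peaks, so the peak values below are a description and carry no test.

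The peaks come from chromatin immunoprecipitation and sequencing (ChIP-seq) of ZTF-28, studied as a transcription factor, whose name stands for zinc finger. All animals were of strain RW12281, in which CRISPR had inserted TY1, EGFP and 3xFLAG tags at the ztf-28 gene on chromosome V (allele st12281), and an antibody against GFP was used on sonicated chromatin of whole young adults at 63 hours, grown after bleaching and starvation as L1 larvae. There was 1 group with 2 biological replicates and no second condition, and the control library that the labels point to was not analysed here. Signal is the authors' value per peak on a scale not given in the sources used here, the peak lists carry no read counts and so the depth is unknown, and a whole animal does not show in which tissue a peak arose.

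In the worm, transcription falls silent in the maturing oocyte and in the earliest embryo, so the first cell fates are set by proteins that decide which stored mRNAs are translated, where, and for how long. CCCH zinc finger proteins, KH domain proteins and RRM proteins bind sites in the untranslated ends of such mRNAs, and enzymes that lengthen or shorten the poly(A) tail change how well an mRNA is translated. These proteins are known as regulators of RNA. The data below concern the DNA around their own genes.

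Reproducible ZTF-28 peaks lay at 4 of the 10 genes, mex-1, pos-1, gld-2 and mex-3, and mex-1 had 2 of them. The conservative list, which holds the 1086 peaks that passed the comparison of the replicates, had a summit within 1000 bp of a start for these 4 genes and for 884 of all 19973 protein-coding genes, which is 4.43%. Because the genes were chosen with these peaks known, nothing is read from the difference between those shares. The same 4 genes were found in the optimal list of the pooled libraries, where 4.52% of protein-coding genes had a summit. Having at least 2 conservative summits, as mex-1 did, was found for 53 protein-coding genes (0.265%). The remaining 6 genes had no conservative summit within 1000 bp, although each had at least 2 ranked peaks there, as did mex-1, pos-1, gld-2 and mex-3. A ranked peak by itself says little, since 82.4% of protein-coding genes had one.

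**Figure D1:**
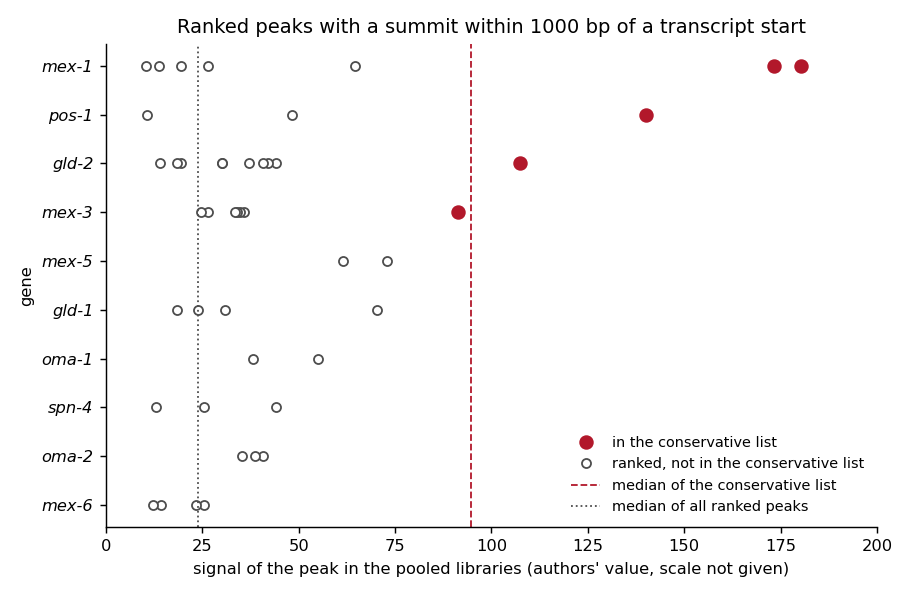
Signal of every ranked peak with a summit within 1000 bp of a transcript start of the 10 genes (x axis, authors' value in the pooled libraries), one row per gene, ordered by the highest value. Filled points are the 5 peaks in the conservative list, between 91.3 and 180.3, and open points are the 40 ranked peaks outside it, all at 72.8 or below; the dashed line is the median of the conservative list (94.8) and the dotted line that of all ranked peaks (23.9).

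The sequences under the mex-1 and pos-1 summits are shown because these are the genes with the strongest peaks. Each is 101 bases of the WBcel235 (ce11) reference, plus strand, 5′ to 3′, with the summit at its centre. The regions are chrII:11967672-11967772 (915 bp upstream of mex-1), chrII:11968398-11968498 (189 bp upstream of mex-1) and chrV:8413756-8413856 (280 bp upstream of pos-1). Capitals mark words of 8 bases that, on either strand, lay within 50 bp of the summit in at least 10 of the 1081 other conservative peaks and at least 3 times as often there as in flanks of about the same total length, with 1 added to both counts. That rule was chosen after the data were seen.
mex-1, 915 bp upstream: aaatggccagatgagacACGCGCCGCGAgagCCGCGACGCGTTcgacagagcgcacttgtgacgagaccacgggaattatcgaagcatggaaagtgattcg
mex-1, 189 bp upstream: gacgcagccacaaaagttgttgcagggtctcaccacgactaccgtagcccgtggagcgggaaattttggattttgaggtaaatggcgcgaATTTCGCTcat
pos-1, 280 bp upstream: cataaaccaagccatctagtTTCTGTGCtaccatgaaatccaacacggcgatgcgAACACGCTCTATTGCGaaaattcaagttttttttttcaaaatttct

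The outer mex-1 sequence held words rich in CG steps. CGCGCCGC occurred in 30 other summit windows against 6 pairs of flanks, and CCGCGACG in 21 against 5. They were found in 0.135% and 0.0601% of start regions, the 100 bases before each protein-coding start with the start itself. The inner mex-1 sequence held 1 such word near its edge, AGCGAAAT read on the minus strand, which occurred in 12 other windows against 2 pairs of flanks and in 0.34% of start regions. The pos-1 sequence held overlapping words just after the summit, among them ACGCTCTA, in 18 other windows against 2 pairs of flanks and in 0.0901% of start regions. In all, 4 of the 5 peaks held a word that met the rule and the mex-3 peak held none. Such words were common by their number, 379, since 85.7% of the other peaks, on which they were chosen, and 38.2% of start regions held at least 1. The single most over-represented word of the other peaks, ATAGCTCA on either strand, lay in 3.42% of them and 0.135% of start regions, and in 0 of the 5 peaks at these genes. Of the 1086 conservative peaks, 674 lay within 1000 bp of a protein-coding start, and words were counted over peaks at all places. Whether a word belongs to the sequence of 1 class of genes was not tested. A match is a string of letters and not a shown binding site, and no match says only that these letters are not in the window.

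Base composition differed widely among the 5 peaks. The outer mex-1 sequence was 57.4% G and C, above 84.7% of other conservative peaks. The inner mex-1 peak and the gld-2 peak were both at 51.5%. The pos-1 and mex-3 peaks were at 37.6% and 39.6%, above only 8.51% and 12.2% of the other peaks. Other conservative peaks had a median of 49.5% (quartiles 43.6 and 54.5), and start regions a median of 31.7%.

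mex-1 encodes a CCCH finger protein needed for the segregation of germ plasm in the early embryo, and it had the strongest peaks of the 10 genes. The outer peak (chromosome II, 11967572 to 11967871) had a signal of 180.3 in the pooled libraries, 75.9 in replicate 1 and 105.7 in replicate 2. The inner peak (11968298 to 11968597) had 173.3 in the pooled libraries, 89.2 in replicate 1 and 79.7 in replicate 2. Replicate 2 was thus the higher one at the outer peak and replicate 1 at the inner peak, and both peaks were also in each replicate's own thresholded list. The summits were 726 bp apart in the 1092 bp between mex-1 and W03C9.5, a gene that runs the other way. The outer summit lay nearer to the start of W03C9.5, at 178 bp upstream, than to that of mex-1, and also 791 bp upstream of a start of rab-7, which encodes a small GTPase of late endosomes. The inner summit was 904 bp upstream of W03C9.5, so a peak in this gap cannot be given to 1 gene by position alone. Among all ranked peaks they stood at ranks 108 and 119 by signal. Their global IDR, the irreproducible discovery rate that falls as a peak's rank is better shared between the replicates, was 0.000183 for the outer peak and 0.000233 for the inner one.

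Another mex-1 peak, 672 bp downstream of the first start, did not reach the conservative list, at 64.5 in the pooled libraries, 35.1 in replicate 1 and 29.6 in replicate 2, with an IDR of 0.0336. The other 4 ranked peaks of mex-1 had pooled signals between 10.3 and 26.4. They were thus well below the peaks upstream of the gene.

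pos-1 encodes a CCCH finger protein that is needed for posterior fates in the embryo. Its peak 280 bp upstream of the start (chromosome V, 8413656 to 8413955) had a pooled signal of 140.1, with 86.0 in replicate 1 and 52.3 in replicate 2. The replicates were further apart here than at the other conservative peaks of these genes. Replicate 1 was 1.64 times replicate 2, and in the middle 95% of conservative peaks that ratio ran between 0.558 and 1.68. In the replicates' own ranked lists the peak stood at rank 109 in replicate 1 and 595 in replicate 2, and only the thresholded list of replicate 1 held it. The own-list IDR was 0.000582 in replicate 1 and 0.373 in replicate 2, while the comparison of both replicates gave 0.000608. The summit lay in the 603 bp between pos-1 and vha-18, which encodes a subunit of the vacuolar proton pump and runs the other way, 324 bp upstream of vha-18.

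pos-1 also had a conservative peak that the 1000 bp limit left out. Its summit lay 1192 bp downstream of the start and 24 bp beyond the annotated end of the gene (8415128 to 8415427), in the stretch before lmd-3, whose end faces that of pos-1. The pooled signal was 99.6, with 47.6 in replicate 1 and 49.9 in replicate 2, and the IDR was 0.00215. This short gene of 1169 bp thus had a reproducible peak on each side. A weaker ranked peak inside it, at 573 bp, reached 48.2 in the pooled libraries, 31.1 in replicate 1 and 25.6 in replicate 2, with an IDR of 0.0826.

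gld-2 encodes the catalytic subunit of a cytoplasmic poly(A) polymerase, and it differs from the others in being an enzyme that is brought to mRNAs by partner proteins. Its peak (chromosome I, 6369778 to 6370077) had a pooled signal of 107.4, with 57.6 in replicate 1 and 52.7 in replicate 2. The replicates were close, at a ratio of 1.09, and their summits were 7 bp apart. The summit lay in the first intron, 180 bp downstream of the most upstream start and 6 bp upstream of the next one. gld-2 has 6 annotated starts over 16447 bp, and its 9 other ranked peaks had pooled signals between 13.9 and 44.1. In single replicates the peak did not reach the thresholded list, with own-list IDRs of 0.0127 in replicate 1 and 0.0242 in replicate 2. Compared together the replicates gave an IDR of 0.00113. The neighbours ZC308.4, upstream on the same strand, and klu-2, downstream, had no start within 1000 bp of this summit.

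mex-3 encodes a KH domain protein that holds the mRNA of the homeobox gene pal-1 silent in the anterior of the embryo. Its peak (chromosome I, 128190 to 128489) had a pooled signal of 91.3, with 48.7 in replicate 1 and 53.0 in replicate 2, and an IDR of 0.00177. The summit lay inside an intron, 1055 bp downstream of the most upstream start and 357 bp upstream of the start of a shorter transcript. The peak therefore depends on which start is used, and with 1 most upstream start per gene mex-3 had no conservative summit in the window. Replicate summits were 88 bp apart, the widest gap of the 5 peaks, against a median of 27 bp over 1072 conservative peaks (quartiles 9 and 55). Own-list IDRs were 0.0710 in replicate 1 and 0.0279 in replicate 2. The next genes are spe-8, which lies 6383 bp upstream, and F53G12.4.

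**Figure D2:**
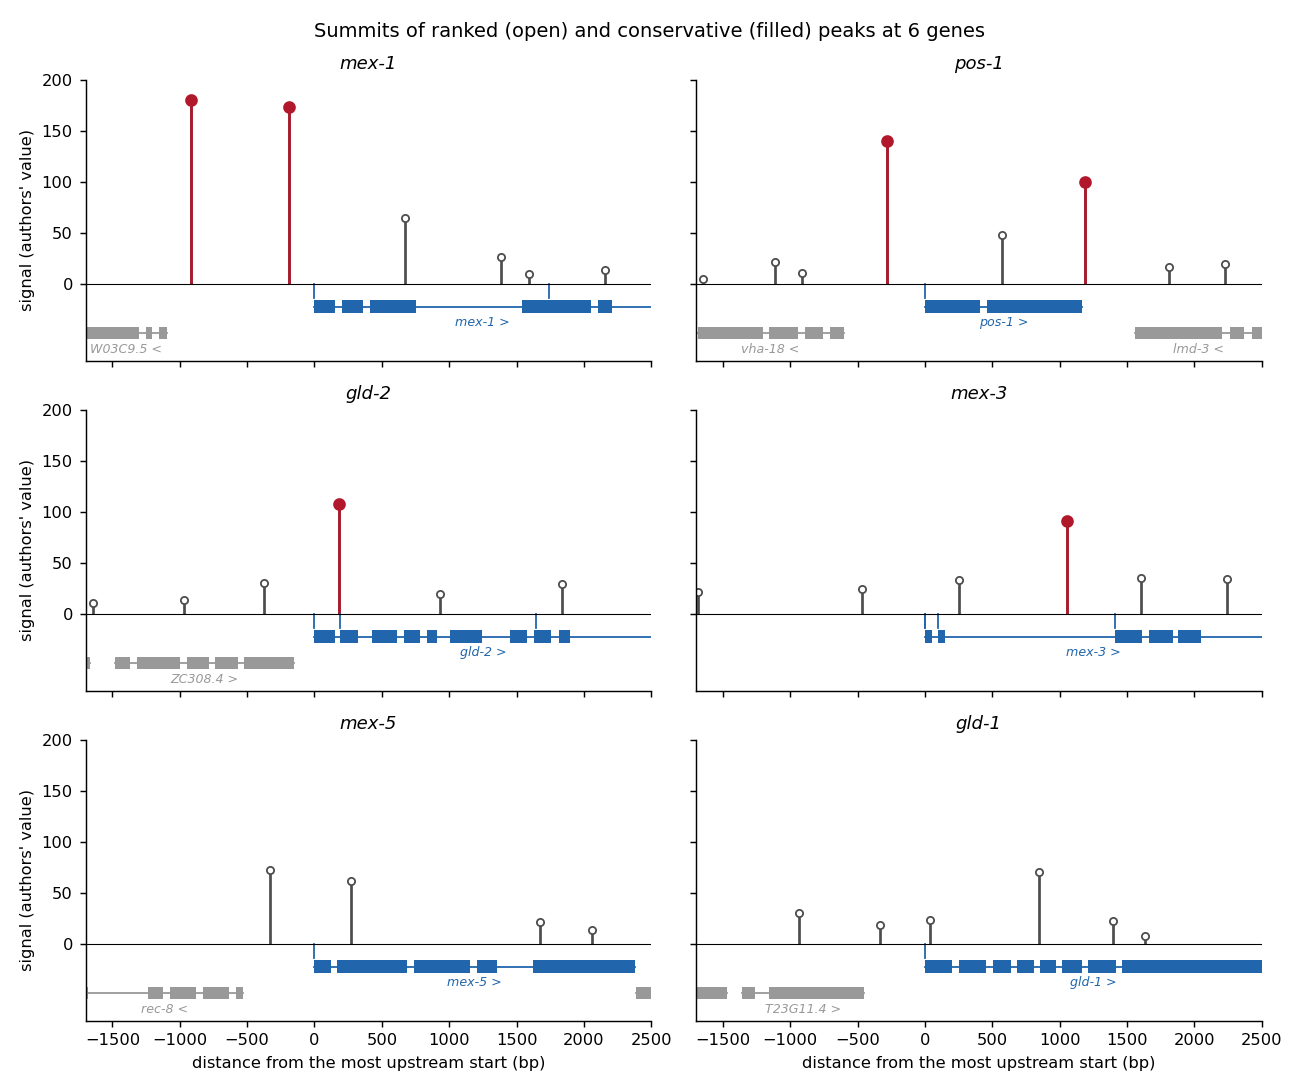
Summits by distance from the most upstream annotated start (x axis, bp) and signal in the pooled libraries (y axis, authors' value) at the 4 genes with a conservative peak and at mex-5 and gld-1. Filled red points are conservative peaks and open points other ranked peaks; blue boxes are exons of the named gene, short blue ticks its annotated starts, and grey boxes neighbouring genes, with arrowheads for strand. mex-1 has 2 red summits upstream, pos-1 has 1 on each side, and those of gld-2 and mex-3 lie in introns.

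gld-1 encodes a KH domain protein of the STAR family that represses translation and is needed for oocyte development. It was the gene nearest to the conservative list by IDR without being in it. Its strongest ranked peak, 846 bp downstream of the start in an intron, had a pooled signal of 70.2, with 32.9 in replicate 1 and 35.4 in replicate 2. The replicates were nearly equal, and the IDR was 0.0201, where the conservative list holds peaks with a score of at least 830, an IDR of about 0.01. The 3 other ranked peaks of gld-1 had pooled signals from 18.4 to 30.9. The nearest conservative summit was 77018 bp from its start.

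mex-5 and mex-6 encode a pair of CCCH finger proteins that act in the anterior of the zygote to set the difference between soma and germ line. mex-5 had the fifth highest signal of the 10 genes, in a peak 333 bp upstream of the start with 72.8 in the pooled libraries, but the paired values of the 2 lists compared were 52.4 and 18.0. The first is the value in replicate 1's own list, where the peak ranked 499 with an own-list IDR of 0.0214. Replicate 2's own ranked list had no peak at that place, and the IDR over both was 0.253. A second mex-5 peak 272 bp downstream was split the same way, with 50.5 in replicate 1 and 13.2 in replicate 2, a pooled signal of 61.6 and an IDR of 0.538. The ratio of the paired values, 2.91 and 3.82, was exceeded by 8.07% and 4.48% of all ranked peaks. In the list ranked on the pooled libraries the upstream peak had an IDR of 0.0136. The paired values of that list were 32.5 and 40.3 and not those of the replicates, so its IDR is another comparison. The peak thus stood close to the limit there and far from it when the replicates were compared. The upstream summit was also 197 bp upstream of rec-8, which encodes a meiotic cohesin subunit and runs the other way.

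mex-6 was at the other end of the order. Its strongest ranked peak lay 196 bp downstream of the start, in the coding sequence, with a pooled signal of 25.4, paired values of 18.4 and 17.9 and an IDR of 0.339. That is close to the median of all ranked peaks, 23.9. By signal the peaks of the pair thus stood at ranks 1449 for mex-5 and 47581 for mex-6 of 103094. By IDR they stood much closer, at 13835 for mex-5 and 20906 for mex-6.

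oma-1 and oma-2 encode a redundant pair of CCCH finger proteins needed for oocyte maturation, and neither had a reproducible peak. The strongest oma-1 peak, 237 bp upstream, had a pooled signal of 55.0 with paired values of 37.2 and 10.8, an IDR of 0.557, and no peak in replicate 2's own list. As at mex-5, the first value was the higher one, with a ratio of 3.45. The other ranked oma-1 peak, 454 bp downstream, went the other way, with 15.4 in replicate 1 and 24.8 in replicate 2. The strongest oma-2 peak, 982 bp downstream in the coding sequence and so just inside the window, had a pooled signal of 40.7, with 24.2 in replicate 1 and 11.1 in replicate 2, and an IDR of 0.52. Its peak upstream of the start, at 389 bp, had a pooled signal of 38.5, with 23.7 in replicate 1 and 14.9 in replicate 2. At the remaining oma-2 peak, 209 bp downstream with a pooled signal of 35.3, the second paired value was the higher one, 10.6 and 28.4. The nearest conservative summits were 38260 bp away for oma-1 and 198264 bp away for oma-2.

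spn-4 encodes an RRM protein needed for spindle orientation and cell fates in the early embryo. Its strongest ranked peak, 228 bp upstream and also 320 bp upstream of spe-39 on the other strand, had a pooled signal of 44.1, paired values of 23.6 and 22.6 and an IDR of 0.189. The paired values were close, yet neither replicate's own list held a peak at that place. The nearest conservative summit was 191004 bp from its start.

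**Figure D3:**
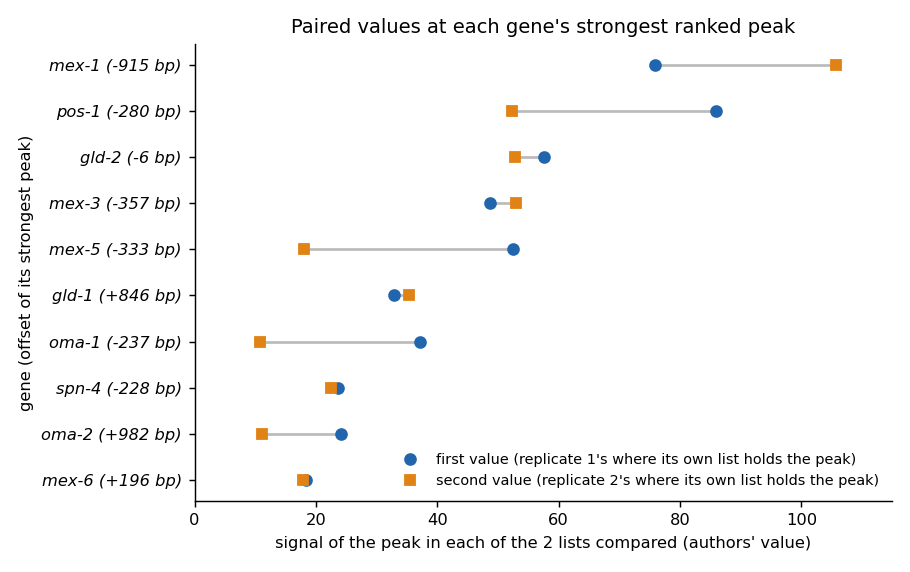
The paired values (x axis, authors' signal in each of the 2 lists compared) at the strongest ranked peak of each gene, with the offset from the start beside the name. Circles are the first value and squares the second; the pairs lie close together at gld-2, mex-3, gld-1, spn-4 and mex-6 and further apart at the other 5 genes. The first value is the higher one at pos-1 (86.0 and 52.3), mex-5 (52.4 and 18.0), oma-1 (37.2 and 10.8) and oma-2 (24.2 and 11.1), and the second at mex-1 (75.9 and 105.7).

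The 10 genes were spread widely over the ranks. Ranked by the highest signal within 1000 bp of a start among the 16462 protein-coding genes with a ranked peak, mex-1 stood at rank 97, pos-1 at 191, gld-2 at 393 and mex-3 at 594. mex-5 and gld-1 followed at 1093 and 1246. oma-1 was at 3025, spn-4 at 5925, oma-2 at 7264 and mex-6 at 13565, so mex-6 lay below 82.4% of the genes. The median of the highest signal was 71.5 over the 10 genes and 38.3 over the 16462 genes (quartiles 28.8 and 50.1), and 9 of the 10 were above 38.3. These values took part in the choice of the genes, so the distance between the medians supports nothing.

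Single libraries gave fewer of these genes. Replicate 1's own thresholded list had a summit near mex-1 and pos-1, where 1.62% of protein-coding genes had one. Replicate 2's own list had a summit near mex-1 alone, where 1.95% had one. With ranked peaks at an IDR of 0.05 or less, listed or not, gld-1 joined the other 4 genes, and the share of all protein-coding genes was 9.32%. At these peaks the pooled signal was close to the sum of both replicates, 140.1 against 138.3 at pos-1 and 180.3 against 181.6 at the outer mex-1 peak. The gap was wider at mex-3, 91.3 against 101.7. Over 1072 conservative peaks the pooled signal had a median of 0.99 times the sum.

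In the order of highest signal, the genes directly above and below the 4 with a conservative peak were not members of the group. Genes that share 1 peak have the same value. Above mex-1 stood sec-61.G and F32D8.13, which share a peak of signal 181.2, and below it sre-23 (179.5), of a chemoreceptor family. sec-61.G encodes a subunit of the protein channel of the endoplasmic reticulum. Above pos-1 stood nsf-1, which encodes a vesicle fusion ATPase, and adr-1, of the adenosine deaminase family that acts on RNA, which share a peak of 140.7. Below it stood lem-2 (139.9), which encodes a protein of the inner nuclear membrane. F08G5.3 and zipt-9, a zinc transporter gene, were both at 107.4, like gld-2. The calreticulin gene crt-1 (91.6) stood above mex-3, and F57C2.5 and spat-1, which share a peak of 91.2, stood below it.

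All 5 conservative peaks within 1000 bp of a start of the 10 genes had their summit upstream of that gene's nearest start. At gld-2 and mex-3 that start is an internal one. Their summits lay in introns, 180 and 1055 bp downstream of the most upstream start. The median offset of the 5 peaks was -280 bp. Of the 674 conservative peaks near a protein-coding start, 76.4% were upstream of the nearest such start of any gene, with a median of -174 bp. These medians are not measured alike. By the second rule the outer mex-1 peak counts as 178 bp upstream of W03C9.5 and not as 915 bp upstream of mex-1. The summit was also in the window of another protein-coding gene at 3 of the 5 peaks, all in the gaps beside mex-1 and pos-1, and at 249 of the 674 (36.9%). The 4 genes whose upstream neighbour runs the other way were mex-1, pos-1, mex-5 and spn-4, with gaps of 1092, 603, 529 and 547 bp. Position does not tell to which of the 2 genes a peak in such a gap belongs. The 10 genes lie on chromosomes I (3), II (2), IV (2) and V (3), none on III or X, and 9 are on the plus strand.

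Other genes of the same pathways were peak-bearing in part. There were 111 such genes in 5 lists, made by hand with earlier results of these data known. Of these, 13 had a conservative summit within 1000 bp of a start (11.7%), against 4.43% of all protein-coding genes. With windows of 500 bp the count was 8, beside 3.2% of all protein-coding genes, and with 2000 bp it was 18, beside 6.39%. The median of the highest signal was 49.4 over the lists and 38.3 over all protein-coding genes with a ranked peak. The lists were made with these data known, so nothing is read from those differences. Among factors that localise, phosphorylate or degrade the proteins, 4 of 23 had one: egg-5 (138.2), a pseudophosphatase gene of the oocyte cortex, the polarity genes par-2 (106.2) and par-3 (82.4), and chs-1 (79.7), which encodes the chitin synthase of the eggshell. Among other translational regulators it was 4 of 27: atx-2 (208.8), the ataxin-2 homologue, larp-1 (171.1), of the La-related family, and the Pumilio family genes puf-6 (108.4) and puf-7 (71.3). The highest signal of all these genes, at atx-2, was above that of mex-1. puf-6 and puf-7 are near-identical copies, and reads may have been shared between them, which was not tested.

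Of 28 genes for poly(A) polymerase partners, deadenylases and repression complexes, 2 had a conservative summit. They were ifet-1 (156.6), which encodes a partner of the cap-binding protein, and cey-2 (104.4), which encodes a Y-box protein. Of 17 genes whose mRNAs the proteins are known to regulate, egg-1 (99.6), needed on the oocyte for fertilisation, and rme-2 (86.3), the yolk receptor gene, had one. Of 17 other CCCH finger and germ plasm genes, glh-2 (96.0), which encodes a helicase of the germ granules, was the single gene with one. The shares of these 3 lists were 7.14%, 11.8% and 5.88%, beside 4.43% of all protein-coding genes. In the thresholded list of replicate 1 alone, 5 of the 111 genes had a summit, and 1.62% of all protein-coding genes did. In that of replicate 2 it was 6 of the 111, and 1.95% of all.

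Several of these summits lay closer to the start of another gene. That of ifet-1 was 505 bp upstream of its start but 263 bp upstream of the ribosomal protein gene rps-1, and 2 and 79 bp downstream of the starts of the non-coding RNA genes F56F3.11 and F56F3.10. The atx-2 summit was 610 bp upstream of atx-2 and 228 bp upstream of ecps-1, and the larp-1 summit 667 bp upstream of larp-1 and 322 bp upstream of wip-1. That of par-2 was 675 bp upstream of par-2, 175 bp upstream of kbp-4 and 49 bp downstream of the start of rab-18. At egg-5 the summit was 610 bp upstream and 7 bp upstream of the spliced-leader RNA gene sls-2.4. For egg-1 (93 bp upstream), rme-2 (62 bp upstream) and par-3 (520 bp upstream) no other annotated gene started within 1000 bp.

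**Figure D4:**
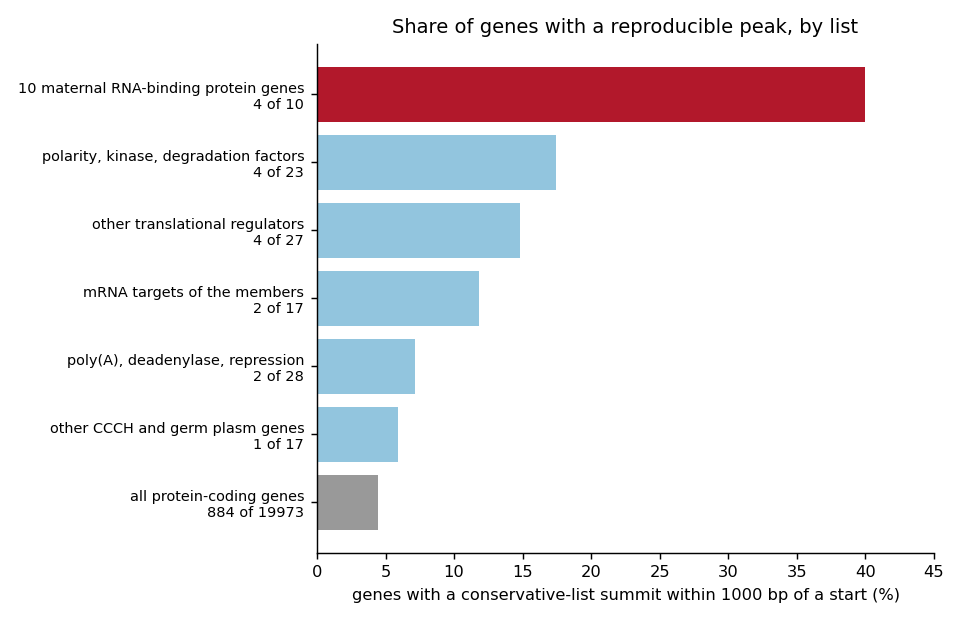
Percentage of genes with a conservative-list summit within 1000 bp of a transcript start (x axis, from 0) for the 10 maternal RNA-binding protein genes, 5 related lists and all protein-coding genes, with the counts beside each name. The first bar is at 40.0% by the choice of its genes, the 5 lists lie between 5.88% and 17.4%, and all protein-coding genes are at 4.43%.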

How the data were processed

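The authors deposited peak lists from ChIP-seq of 2 libraries in assembly ce11, per the labels: ranked lists, and lists thresholded by irreproducible discovery rate (IDR), for each replicate alone, for the replicates compared (conservative) and for the pooled libraries (optimal). Each list holds a signal value per peak, as deposited, and a score, which is a scaled form of the IDR given by the authors. The aligner, peak caller, signal scale and read depth were not given in the sources used here. Per the submitters' file listings, a list derives from 1 library or from both, and pooled values have no replicate spread.

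From these, summits were assigned to every gene with an annotated transcript start within 1000 bp (Ensembl release 115, WBcel235). Replicate values are those of the overlapping peak in each replicate's own ranked list. Where a list held none, the 2 paired values of the ranked list are printed as first and second. Over all ranked peaks, the first equals replicate 1's own value at 57.7% and the second replicate 2's at 56.3%, with 1 and 0 equal to the opposite replicate. Of 1131 ranked peaks at or above the lowest conservative score, 45 are absent from the conservative list and were not counted. Of 123 symbols in the lists, 122 were found. Sequences come from the RefSeq copy of WBcel235, and each word was counted once per window with both strands merged.

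The 10 genes, the lists and the words were chosen with earlier results of these data known, and no test was made. Named genes are the 10, the genes that share or flank their thresholded peaks, the list genes with a conservative summit, and the protein-coding genes directly above and below in highest signal, with genes tied with them through a shared peak. The tied genes were named after their values were seen. rec-8 and spe-39 were added after their values were seen. The labels call both libraries biological replicates. Window assignment was tested on simulated data. Analyses ran in Python 3.11.15 with NumPy 2.4.6, pandas 2.3.3 and matplotlib 3.10.9. Alternatives were other start windows, peak overlap, 1 start per gene, the optimal list, stricter and looser IDR, each replicate alone, rank by IDR, and other word lengths and windows.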

Additional observations from a re-analysis of the deposited data

How the results depend on the processing

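The count of 4 genes with a conservative summit was also 4 with windows of 500 or 2000 bp, with 500 bp upstream and 200 bp downstream, with any base of the peak, in the optimal list and at an IDR of 0.01. The share of all protein-coding genes was 3.2% with windows of 500 bp, 6.39% with 2000 bp and 2.99% with 500 bp upstream and 200 bp downstream. That share was 4.81% with any base of the peak and 4.52% in the optimal list. The count was 3 with 1 most upstream start per gene, without mex-3, where 4.07% of all protein-coding genes had a summit. It was 5 with ranked peaks at an IDR of 0.05, where 9.32% had one. At an IDR of 0.001 it was 2, pos-1 and mex-1, where 1.54% of protein-coding genes had a summit. With 1 replicate left out it was 1 to 2: mex-1 without replicate 1, and pos-1 and mex-1 without replicate 2. The share of all protein-coding genes was then 1.95% without replicate 1 and 1.62% without replicate 2. The optimal list's count of 4 stayed between 3 and 4. For the 5 related lists the count of 13 was 18 with windows of 2000 bp. It was 8 with windows of 500 bp and of 500 bp upstream and 200 bp downstream. Their count was 4 at an IDR of 0.001, 29 with ranked peaks at an IDR of 0.05, and 5 to 6 with 1 replicate left out. The shares of all protein-coding genes at these settings are those given above. The median highest signal of 71.5 was 31.9 to 42.9 in single replicates and 63.9 with windows of 500 bp. Single and pooled values are not directly comparable. Over 1072 conservative peaks the pooled signal had a median of 0.99 times the sum of the replicates, and this was not measured at other peaks. Ranked by IDR, mex-5 fell to 13835 of 103094 and oma-1 to 54647, while mex-6 moved up to 20906, and oma-2 was at 47190. The single most over-represented word of 6 bases (CCTTAG), and that with windows of 100 bp (GTGGCCTA), had 0 matches at the 5 peaks, as did ATAGCTCA. No paired analysis was possible because both libraries belong to 1 group. With 2 replicates, no control library analysed here and no read counts in the lists, no error of a single peak's signal and no limit of detection was given, and a peak outside the conservative list is not shown to be absent.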
